A study of Sus scrofa with 16 samples.

Results

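Astrocytes are the glial cells that support neurons in the hippocampus, and 10 genes of their function and reactivity were followed in preterm pigs with and without necrotizing enterocolitis (NEC), a necrotic inflammation of the immature gut. The genes were GFAP, VIM, AQP4, SLC1A2, SLC1A3, ALDH1L1, GJA1, GLUL, SLC14A1 and SOX9. They were chosen for what they do in astrocytes, but with earlier results of these data known. They were looked up through a table of gene IDs and symbols among 22815 distinct entries of the deposited expression table. Of the 10 genes, 8 were found, 7 were high enough to be tested and 2, SLC1A2 and GLUL, were not found. ALDH1L1, a folate enzyme widely used as an astrocyte marker (ENSSSCG00000030626), was listed at 0 in each of the 16 pigs. NDRG2 and PYGB, which astrocytes also express strongly, were listed at 0 in every pig as well, so nothing was read from these zeros. The entry taken as AQP4 carried no symbol in the name table used here, and its ID was given with the gene list. Of all entries, its Si-NEC and Co-NEC means lay closest to those the study gives under that name, so its identity rests partly on the values that are compared.

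Left hippocampi of 16 crossbred pigs (Danish Landrace, Large White and Duroc) were sequenced, 1 library per pig. All pigs were delivered preterm by caesarean section and killed after about a week. They were fed increasing amounts of human donor milk, of different types, beside parenteral nutrition. NEC arose spontaneously rather than by a further treatment. Pigs of the noNEC label (No NEC, n = 5, of which 2 were female and 3 male) had no visible gut lesions. Pigs of the coNEC label (Co-NEC, n = 5, again 2 female and 3 male) had severe lesions in the colon only, and pigs of the siNEC label (Si-NEC, n = 6, with 3 of each sex) had severe lesions of the small intestine, whether or not the colon was also affected. The litter and the type of milk of each pig are not in the labels, so neither could be taken into account. Expression was deposited as FPKM, fragments scaled to transcript length and to the fragments sequenced, with no read counts, so the depth behind each value is unknown. FPKM sums ran from 544629 to 864931, and the highest belonged to No NEC pig 230-15 and Si-NEC pig 223-15, which also correlated least with the other pigs across genes (medians 0.902 and 0.933). Hippocampal and neuronal markers were present, with FIBCD1, a gene of CA1 neurons, at a mean of 67.4 FPKM and SLC17A7, the vesicular glutamate transporter of excitatory neurons, at 582 FPKM. Results that rest on pig 223-15 or 230-15 are given with and without it. Each group mean below is followed by its SD over the pigs (n = 5 in No NEC and Co-NEC, n = 6 in Si-NEC), and each permutation test was two-sided.

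Astrocytes take up glutamate from synapses, move water and potassium towards blood vessels through their endfeet, and are joined into networks by gap junctions. GFAP and vimentin form their intermediate filaments, and in injury or inflammation astrocytes are known to become reactive, with more of both filaments. In the perinatal brain vimentin is also made by radial glia and by cells of vessel walls. Because the tissue was sequenced in bulk, fewer astrocytes and less RNA per astrocyte cannot be told apart in any value below.

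FPKM is scaled to transcript length, so levels can be set side by side between genes only as far as their gene models are complete. Whether they are was not checked here. Averaged over the 16 pigs, GFAP (ENSSSCG00000017343) was highest at 603 FPKM, rank 110 of the 13590 entries tested. SLC1A3 (ENSSSCG00000016841), a glutamate transporter, followed at 302 FPKM. VIM (ENSSSCG00000011033), AQP4 (ENSSSCG00000024342) and GJA1 (ENSSSCG00000004241) lay close together at 170, 159 and 155 FPKM. SOX9 (ENSSSCG00000017251), a transcription factor of glial cells, was at 28.8 FPKM and SLC14A1 (ENSSSCG00000004492), a urea transporter, at 19.4 FPKM. GFAP was above SLC1A3 in 16 of 16 pigs and GJA1 above SOX9 in 16 of 16. The order of VIM, AQP4 and GJA1 was not stable, with VIM above AQP4 in 9 of 16 pigs and AQP4 above GJA1 in 11 of 16. The SD of log2(FPKM + 0.5) over the pigs was smallest for SLC1A3, at 0.18, and largest for SLC14A1, at 0.72, which was more than in 94.3% of tested entries.

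**Figure D1:**
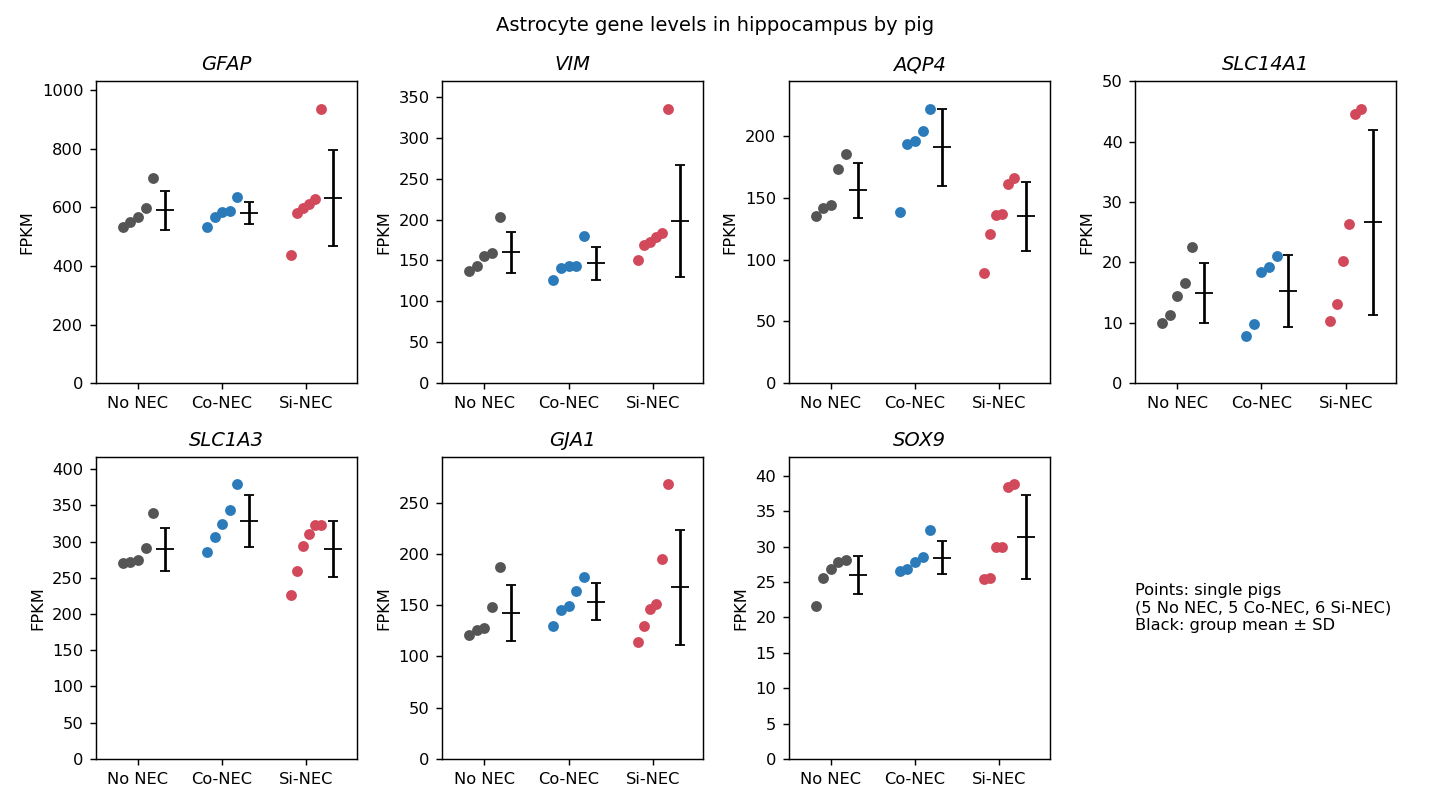
FPKM (y axis, linear, from 0) of the 7 tested astrocyte genes in each pig, by group (x axis); points are single pigs and black bars are group means ± SD. AQP4 was at 193 FPKM or more in 4 of 5 Co-NEC pigs and at 166 FPKM or less in all 6 Si-NEC pigs, and Si-NEC pig 223-15 stands apart in GFAP, VIM and GJA1.

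AQP4, the water channel of astrocyte endfeet, gave the smallest p of the 7 genes between the NEC groups, and its mean was lower with small-intestinal than with colonic lesions (Si-NEC against Co-NEC). In the Co-NEC pigs it was at 204, 196, 222, 138 and 193 FPKM, a mean of 191 ± 31.4 FPKM. In the Si-NEC pigs it ran from 88.9 over a median of 137 to 166 FPKM, a mean of 135 ± 28.1 FPKM. The groups overlapped only through Co-NEC pig 255-15, since 4 of 5 Co-NEC pigs exceeded every Si-NEC pig. The log2 difference, fitted on log2(FPKM + 0.5), of Si-NEC against Co-NEC was −0.51 (standard error, SE, 0.17), a fold of 0.703 with a 95% interval from 0.546 to 0.906 (exact permutation p = 0.0130). The limma adjusted p over all entries was 0.851, so AQP4 did not pass the threshold of 0.2. With limma array weights, which weighted pig 223-15 at 0.141, it was −0.53 with an adjusted p of 0.191, and 1.48% of all entries passed there. Over all alternatives the adjusted p of AQP4 ran from 0.191 to 1. AQP4 and VIM are among the genes that the study itself called between these groups on these pigs. The AQP4 entry was also matched by its means in these groups. The direction here is therefore not independent evidence, and the p-values take no account of this earlier selection.

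The No NEC mean lay between those of the NEC groups, with AQP4 at 173, 186, 144, 135 and 142 FPKM and a mean of 156 ± 22.1 FPKM. Against them the log2 difference of Co-NEC was 0.28 (SE 0.15 by limma, with p = 0.0714 by exact permutation), and 4 of 5 Co-NEC pigs exceeded every No NEC pig. Si-NEC against No NEC gave −0.23 (SE 0.17 by limma, with p = 0.212 by exact permutation), with 2 of 6 Si-NEC pigs below every No NEC pig. Both of these comparisons use the same No NEC pigs, and neither passed the threshold (limma adjusted p = 0.812 and 1). The pig numbers end in 14 or 15, which the labels do not explain. All 6 pigs ending in 14 were male, and those ending in 15 were 7 females and 3 males, so a split by this ending is partly a split by sex. The mean log2 difference in AQP4 between Si-NEC and Co-NEC was −0.92 among pigs ending in 14, with 2 pigs in each group, and −0.28 among those ending in 15, with 4 and 3 pigs. It was −0.57 without pig 223-15.

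GFAP, the main filament protein of mature astrocytes, differed between the 3 groups by less than the spread between pigs. It was at 532, 700, 597, 567 and 551 FPKM in the No NEC pigs (mean 590 ± 66.2) and at 587, 636, 583, 566 and 533 FPKM in the Co-NEC pigs (mean 581 ± 37.4). Si-NEC pigs ran from 438 over a median of 605 to 938 FPKM (mean 632 ± 164). They held both the lowest and the highest GFAP of the 16 pigs, 539-14 and 223-15, and 4 of the 6 lay within the No NEC range. The log2 difference was 0.07 in Si-NEC against No NEC (exact permutation p = 0.714), with a 95% interval of the fold from 0.805 to 1.37. In Co-NEC against No NEC it was −0.02 (exact permutation p = 0.857), with an interval from 0.831 to 1.18. Without pig 223-15 the Si-NEC value turned to −0.0501.

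VIM, the filament protein vimentin, was higher in mean with small-intestinal than with colonic lesions, partly through 1 pig. It was at 126, 143, 143, 141 and 179 FPKM in the Co-NEC pigs (mean 146 ± 19.8) and at 144, 138, 203, 156 and 159 FPKM in the No NEC pigs (mean 160 ± 25.5). Si-NEC pigs ran from 151 over a median of 175 to 336 FPKM (mean 198 ± 68.2), and pig 223-15 was far above the other 5, of which the highest was at 183 FPKM. Every Si-NEC pig was above 4 of the 5 Co-NEC pigs, the exception being Co-NEC pig 231-15 at 179 FPKM. The log2 difference of Si-NEC against Co-NEC was 0.39 (SE 0.18 by limma, with p = 0.0303 by exact permutation, limma adjusted p = 0.867), and 0.23 without pig 223-15. It was 0.29 among pigs ending in 14 and 0.44 among those ending in 15. Against No NEC it was 0.27 in Si-NEC (exact permutation p = 0.190), or 0.11 without pig 223-15. It was 0.36 without pig 230-15, the highest No NEC pig, and 0.20 without pigs 223-15 and 230-15 together. In Co-NEC against No NEC it was −0.12 (exact permutation p = 0.413), or −0.0328 without pig 230-15. The study also lists VIM among the genes it checked by qPCR in a larger set of pigs, whose values are not compared here.

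SLC14A1, the urea transporter UT-B, gave the largest log2 difference of the 7 genes in both comparisons with Si-NEC and the widest spread on that scale. It was at 22.5, 16.6, 14.4, 11.2 and 10.03 FPKM in the No NEC pigs (mean 15.0 ± 4.96) and at 18.5, 7.77, 9.89, 19.2 and 21.1 FPKM in the Co-NEC pigs (mean 15.3 ± 6.01). Si-NEC pigs ran from 10.3 over a median of 23.3 to 45.5 FPKM (mean 26.7 ± 15.3). Si-NEC pigs 223-15, 224-15 and 226-15, at 45.5, 44.6 and 26.4 FPKM, exceeded every pig of the other groups, while 547-14 and 246-15 were as low as the lower No NEC pigs. The Si-NEC mean was 1.78 times that of No NEC, and the log2 difference was 0.66 (SE 0.38 by limma, with p = 0.160 by exact permutation), with a 95% interval of the fold from 0.884 to 2.83. Against Co-NEC it was 0.67 (SE 0.41 by limma, with p = 0.195 by exact permutation), and between Co-NEC and No NEC it was −0.01, the smallest of the 7 genes. The study called SLC14A1 in both comparisons with Si-NEC on these pigs, so its direction is not independent evidence. Without pig 223-15 or without pig 224-15 the value against No NEC was 0.47, and that against Co-NEC was 0.48 or 0.49. The difference between Si-NEC and No NEC was 1.03 on the log2 scale among pigs ending in 15 and −0.06 among those ending in 14, so it did not hold in both sets. Between Si-NEC and Co-NEC it was 0.56 among pigs ending in 15 and 0.69 among those ending in 14.

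For SLC1A3, GJA1 and SOX9 the pigs of all groups overlapped widely or in part. SLC1A3, which clears glutamate from the extracellular space, was at 290 ± 29.4 FPKM in No NEC, 328 ± 35.7 in Co-NEC and 290 ± 38.7 in Si-NEC pigs. Its log2 difference was 0.18 in Co-NEC (exact permutation p = 0.0952) and −0.01 in Si-NEC against No NEC (exact permutation p = 0.970). For the latter the 95% interval of the fold was 0.824 to 1.20. GJA1, encoding the gap junction protein connexin 43, was at 142 ± 27.4 FPKM in No NEC, 153 ± 18.2 in Co-NEC and 168 ± 56.3 in Si-NEC pigs. Its highest value, 268 FPKM, was again that of pig 223-15, and the log2 difference of Si-NEC against No NEC was 0.20 with all pigs and 0.0485 without it. It was −0.31 among pigs ending in 14 and 0.46 among those ending in 15. SOX9 was at 25.6, 27.8, 21.6, 26.9 and 28.1 FPKM in the No NEC pigs and between 26.5 and 32.4 FPKM in the Co-NEC pigs. In Si-NEC pigs it ran from 25.5 over a median of 29.97 to 38.8 FPKM, and 4 of 6 exceeded every No NEC pig. The SOX9 log2 difference of Si-NEC against No NEC was 0.25 (SE 0.14 by limma, with p = 0.0996 by exact permutation), and between 0.19 and 0.31 whichever single pig was left out. It was 0.16 with array weights and 0.13 without pigs 223-15 and 230-15 together.

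**Figure D2:**
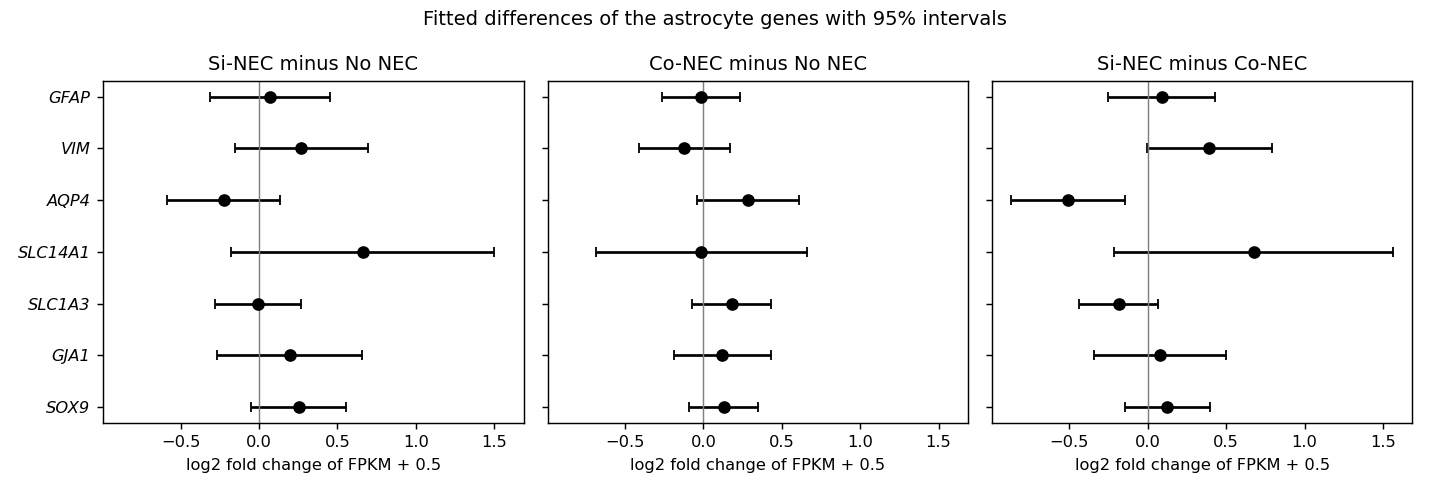
Fitted log2 differences of FPKM + 0.5 (x axis) for the 7 tested genes (y axis) in each pair of groups; points are limma estimates and bars their 95% intervals. The interval of AQP4 in Si-NEC against Co-NEC, centred at −0.51, is the only one of the 21 that leaves out 0.

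Counted together, 0 of the 7 tested genes passed an adjusted p of 0.2 (limma) in Si-NEC against No NEC pigs, where 0.00736% of all tested entries did. The smallest two-sided exact permutation p that 5 against 5 pigs allow is 0.00794. The count was also 0 in Co-NEC against No NEC (0.00736% of all entries) and 0 in Si-NEC against Co-NEC (0.0147%). At an unadjusted limma p under 0.05 the count was 0 in Si-NEC against No NEC, where 1.59% of all entries were higher and 1.02% lower. It was 0 in Co-NEC against No NEC, where 2.12% were higher and 1.32% lower. In Si-NEC against Co-NEC it was 0 higher (3.25% of all entries) and 1 lower (2.4%), the latter being AQP4. VIM, whose exact permutation p was 0.0303, had a limma p of 0.0537 and is not in that count. No gene separated the pigs of any pair of groups completely. Of all entries, 0.118% did so with higher and 0.0368% with lower values in Si-NEC against No NEC, 0.235% and 0.228% in Co-NEC against No NEC, and 0.309% and 0.235% in Si-NEC against Co-NEC. With array weights 0 of the 7 genes passed the adjusted threshold in Si-NEC against No NEC (0.0294% of all entries) and 0 in Co-NEC against No NEC (0.00736%). In Si-NEC against No NEC, 5 of the 7 genes were higher in mean log2 value and 2 lower, beside 53.8% of all entries higher. The median log2 difference was 0.20 beside 0.02 over all entries. In Co-NEC against No NEC, 4 were higher and 3 lower, beside 52.0% of all entries higher, with a median of 0.12 beside 0.01. In Si-NEC against Co-NEC, 5 were higher and 2 lower, beside 50.1% of all entries higher. The median was 0.09 beside 4.82e-05 over all entries. Without pig 223-15, GFAP turned to −0.0501 in Si-NEC against No NEC. There GJA1, which held the median of 0.20, was at 0.0485 without that pig. Against Co-NEC, GFAP and GJA1 turned to −0.0337 and −0.0714 without it. The counts and medians of both comparisons with Si-NEC therefore rest partly on pig 223-15. No interaction of group with sex passed in the 7 genes (limma, smallest adjusted p = 0.444), and 0 of the 21 interaction terms had an unadjusted p under 0.05.

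**Figure D3:**
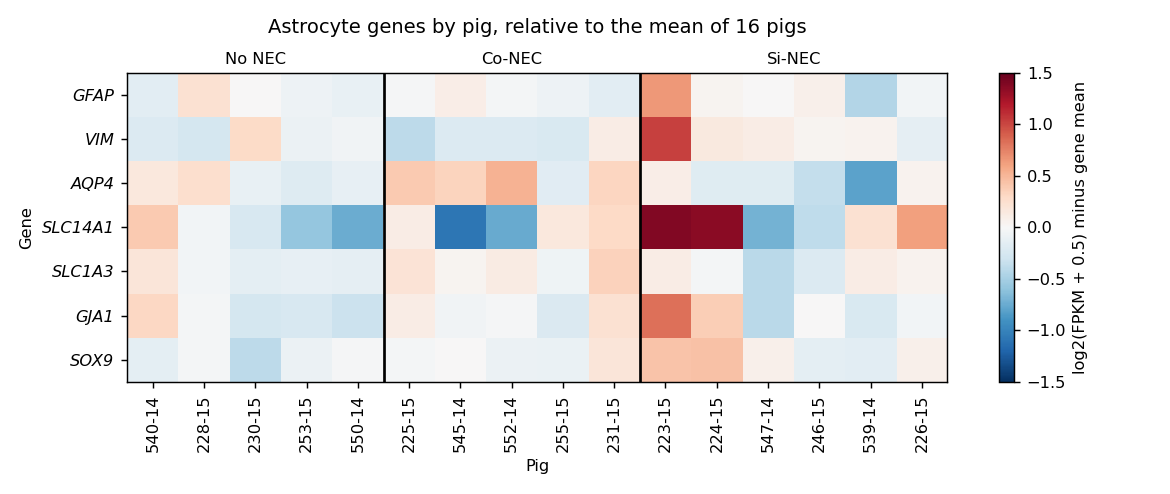
log2(FPKM + 0.5) minus each gene's mean over 16 pigs (colour, red above and blue below the mean) for the 7 genes (rows) in each pig (columns, by group). Pig 223-15 is highest of the 16 in GFAP, VIM, GJA1 and SLC14A1, and AQP4 is above its mean in 4 of 5 Co-NEC pigs.

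Pig 223-15 was the highest of the 16 in 4 of the 7 genes, and within the Co-NEC group pig 231-15 was highest in 5 of 7. Over the 21 pairs of genes, Pearson's r of log2 values across the 16 pigs ran from −0.23 for VIM and AQP4 to 0.75 for GJA1 and SLC14A1, with a median of 0.47, and 17 of 21 were above 0. All pairs share libraries. GJA1 and SLC14A1 gave r = 0.745 (permutation p = 0.000780, adjusted p = 0.0164 over 21 pairs) while the rank correlation, Spearman's rho, was 0.629 (adjusted p = 0.0782, permutation p = 0.0107). Leaving out 223-15 and 224-15, the 2 pigs whose GJA1 lay farthest from its median, r was 0.471 (permutation p = 0.0911), over a narrower range of GJA1. With single pigs left out r ran from 0.631 to 0.794, and with group means removed it was 0.756. Within pigs ending in 15 (n = 10) r was 0.821 (permutation p = 0.00312), and within pigs ending in 14 (n = 6) it was 0.448 (exact permutation p = 0.365).

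AQP4 and SLC1A3 gave r = 0.466 (permutation p = 0.0681, adjusted p = 0.143) with rho at 0.624 (adjusted p = 0.0782, permutation p = 0.0112). With group means removed r was 0.272. Without 539-14 and 552-14, the lowest and highest AQP4 pigs, r was 0.770 (permutation p = 0.00116). It was 0.833 within pigs ending in 15 (n = 10, permutation p = 0.00243) and 0.201 within those ending in 14 (n = 6, exact permutation p = 0.650). GFAP and VIM, the filament genes, gave r = 0.568 (permutation p = 0.0566, adjusted p = 0.135) but rho was 0.0912 (adjusted p = 0.800, permutation p = 0.737), and r was −0.09 without pigs 223-15 and 539-14 (permutation p = 0.755). Within pigs ending in 15 (n = 10) their r was 0.716 (permutation p = 0.0660), and within those ending in 14 (n = 6) it was −0.39 (exact permutation p = 0.476).

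Among tested entries with a symbol, those most like AQP4 over the 16 pigs included HAPLN1, a link protein of the extracellular matrix (r = 0.903), and SPARCL1, an astrocyte matrix protein (r = 0.884). Their log2 differences of Si-NEC against Co-NEC were −0.46 and −0.28, and the study called HAPLN1 there on these pigs. Most like VIM were TCEAL1 (r = 0.895), EPHX1, an epoxide hydrolase (r = 0.856), and TOMM7, a subunit of the mitochondrial import pore (r = 0.855). Most like GFAP were CNN3, an actin-binding calponin (r = 0.852), SWT1 (r = 0.827) and LEPROT (r = 0.817). These r were picked as the highest of all entries and are a description only.

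Other astrocyte genes were taken from 4 lists of 67 genes in all, of which 48 were found and 43 tested. None passed the adjusted threshold in any comparison (limma, adjusted p of 0.812 or more), and counts at an unadjusted limma p under 0.05 were few. In Si-NEC against No NEC 1 gene was higher (1.59% of all entries) and 0 lower (1.02%), and in Co-NEC against No NEC the counts were 0 (2.12%) and 0 (1.32%). In Si-NEC against Co-NEC 1 was higher (3.25%) and 2 lower (2.4%). In the reactive astrocyte list, 17 genes were tested and their median log2 difference was 0.05 in Si-NEC and 0.01 in Co-NEC against No NEC, and 0.08 in Si-NEC against Co-NEC. The median of the 7 genes of endfeet and of water and ion transport was 0.02, 0.06 and −0.04 in the same order, and that of the 3 genes of glutamate and metabolism was 0.05, 0.22 and −0.22. For 16 other astrocyte genes it was 0.01, −0.05 and 0.01.

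Genes named from these lists are among the 4 with the smallest limma p in each comparison, and the permutation p printed beside them can fall on the other side of 0.05. The limma p was 0.0417 for OSMR and 0.101 for S1PR3. OSMR, the oncostatin M receptor of reactive glia, was at 2.202 ± 0.970 FPKM in Si-NEC beside 1.30 ± 0.410 without NEC, a log2 difference of 0.55 (exact permutation p = 0.0519), and 3 of 6 Si-NEC pigs exceeded every No NEC pig. In the same comparison CLCN2, a chloride channel of glia, gave −0.44 (exact permutation p = 0.0519). TNC, the matrix protein tenascin C, is on the reactive astrocyte list like OSMR and gave −0.68 (exact permutation p = 0.126). For each of CLCN2, TNC and ACSBG1, an acyl-CoA synthetase (−0.18), 4 of 6 Si-NEC pigs were below every No NEC pig. The CLCN2 mean of the No NEC pigs, 39.9 FPKM, held 70.0 FPKM in pig 230-15, and the log2 difference was −0.22 without that pig. OSMR gave 0.45 without pig 230-15 and 0.61 without pig 223-15. TNC gave −0.57 without pig 230-15 and −0.51 without pig 223-15.

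In Co-NEC against No NEC, the complement component C3 gave a log2 difference of 0.38 (exact permutation p = 0.0794) and 4 of 5 Co-NEC pigs exceeded every No NEC pig. S1PR3, a receptor for sphingosine 1-phosphate, gave 0.24 (exact permutation p = 0.0476). APOE, the main lipid carrier made by astrocytes, gave −0.43 (exact permutation p = 0.0556), at 1689 ± 154 FPKM in Co-NEC and 2407 ± 1019 in No NEC pigs. The No NEC mean held 4183 FPKM in pig 230-15, and without it the log2 difference of APOE was −0.21. Without it S1PR3 gave 0.16 and C3 gave 0.31.

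In Si-NEC against Co-NEC, TIMP1, an inhibitor of matrix metalloproteinases known from reactive astrocytes, was at 14.9 ± 5.24 FPKM in the former and 8.79 ± 2.06 in the latter. Its log2 difference was 0.68 (SE 0.23 by limma, with p = 0.0260 by exact permutation), or 0.58 without pig 223-15, and 3 of 6 Si-NEC pigs exceeded every Co-NEC pig. Of the 17 tested genes of the reactive astrocyte list, which holds TIMP1, 11 were higher and 6 lower in this comparison. Over all tested entries, 50.1% were higher. C3 and TNC of that list gave −0.41 and −0.40. SLC4A4, the sodium bicarbonate cotransporter of astrocytes, was at 16.6 ± 2.94 FPKM in Si-NEC pigs beside 20.9 ± 2.11 FPKM in Co-NEC. Its log2 difference was −0.33 (exact permutation p = 0.0303), or −0.28 without pig 223-15. ACSBG1 gave −0.21 in the same comparison (exact permutation p = 0.0519). The limma adjusted p was between 0.851 and 0.867 for TIMP1, SLC4A4 and ACSBG1.

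**Figure D4:**
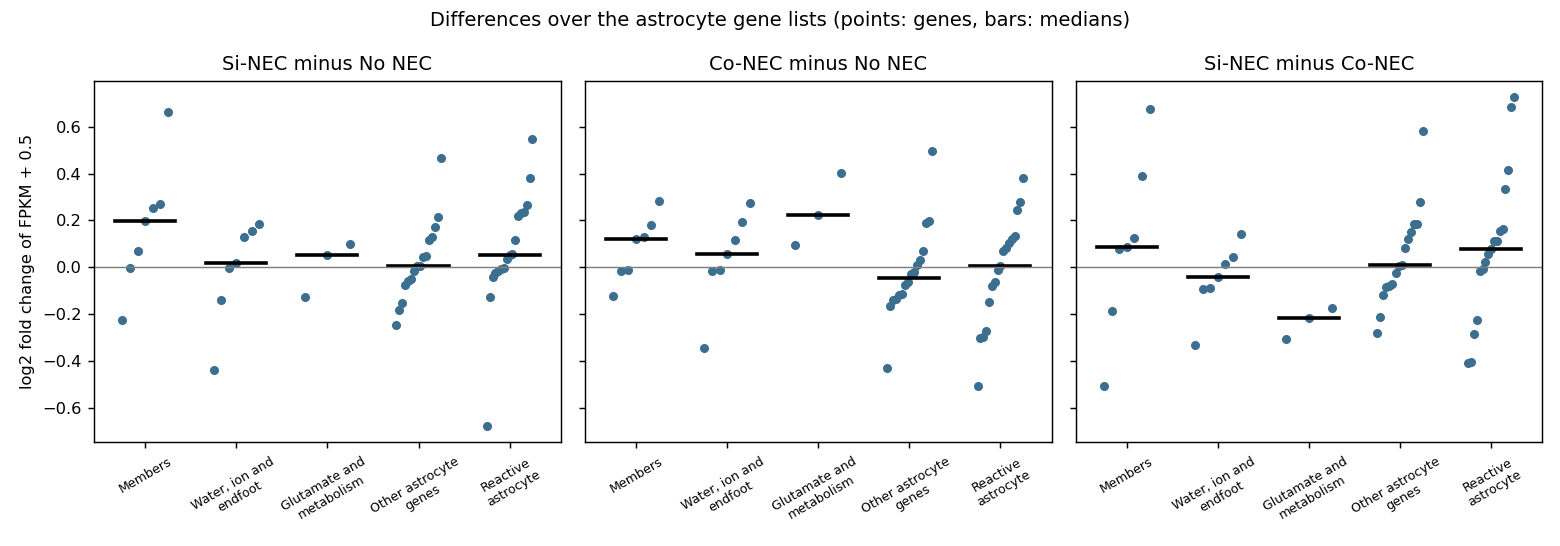
log2 differences of FPKM + 0.5 (y axis) for the 7 tested genes (Members) and the 4 other astrocyte lists (x axis) in each pair of groups; points are genes and bars are list medians. Each list has genes on both sides of 0 except the 3 glutamate and metabolism genes, which are all above 0 in Co-NEC against No NEC and all below 0 in Si-NEC against Co-NEC.

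Markers of other cell types were summed per pig beside these values. For VIM, which vessel cells also make, the 4 of 8 endothelial markers found summed to 22.7 to 38.7 FPKM in Si-NEC, 20.8 to 28.6 in Co-NEC and 16.9 to 31.5 in No NEC pigs, and pig 223-15, highest in VIM, had the lowest endothelial sum of the Si-NEC group. The 7 of 9 mural and meningeal markers found summed to 41.8 to 69.7 FPKM in Si-NEC, 43.1 to 70.3 in Co-NEC and 39.7 to 90.4 in No NEC pigs, and pig 223-15 was highest of its group. The 5 of 10 microglia markers found were also highest in pig 223-15, at 120 FPKM, beside 40.9 to 74.4 FPKM in the other Si-NEC pigs. The sums of oligodendrocyte (2989 FPKM) and neuron markers (2025 FPKM) were highest of the group in that pig too, and No NEC pig 230-15 was highest of its group in all 3. The 4 of 9 progenitor markers found summed to 32.1 to 58.9 FPKM in Si-NEC, 42.9 to 51.3 in Co-NEC and 40.2 to 54.3 in No NEC pigs. That sum includes TNC, named above from the reactive astrocyte list, at a mean of 20.1 FPKM over all pigs. None of the markers found for these cell types was at 0 in every pig. Their part in the differences of VIM and the other genes was not tested.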

How the data were processed

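Whole left hippocampi of 16 preterm pigs were sequenced. The authors trimmed the reads, aligned them to Sscrofa10.2 with TopHat2 2.1.1 and computed FPKM with Cufflinks 2.2.1. The deposited values are FPKM, 1 column per pig and no counts, and depth could not be recovered from low values. FPKM depend on the gene models, so a gene can be listed at 0 where its estimate failed.

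Of 24594 entries, 1779 identical ones were dropped, and the 13590 with a mean of at least 0.5 FPKM were tested as log2(FPKM + 0.5) with limma 3.58.1 (R 4.3.3, eBayes with trend), pairwise within the pigs of each 2 groups, without covariates. Fold changes are on that scale, which understates those of low genes. Benjamini-Hochberg adjustment ran over all tested entries, with the threshold at 0.2, as in the study. Exact permutation tests compared mean log2 values of single genes (Python 3.11.15, scipy 1.17.1), and correlations used 100000 permutations, or all orders for 6 pigs. The fit was tested on simulated data.

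All 10 genes are named, with the 4 genes of smallest p from the other astrocyte lists in each comparison and the 3 entries most like AQP4, VIM and GFAP. Some of the genes this rule names are not reported here. The members and lists were chosen with earlier results of these data known. Groups, sex and pig numbers came from the labels. Alternatives covered the pseudocount, filter, scaling, covariates, weights, trend, threshold and pigs left out. Leaving pig 223-15 or 230-15 out for the named genes of the other lists was chosen after seeing the data.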

Additional observations from a re-analysis of the deposited data

Results flagged for a closer look

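VIM in Si-NEC pig 223-15, at 336 FPKM, lay far above the other 5 pigs of its group. The gap to the next pig was 0.824 of the group's whole range, beyond Dixon's 95% critical value of 0.625 for 6 samples. It was the only 1 of 21 groups of values, 7 genes in 3 groups, that did so, and chance gives about 1 in 20. The same pig had the highest sums of microglia (120 FPKM), oligodendrocyte (2989 FPKM) and neuron markers (2025 FPKM) of its group, and an FPKM sum of 823320, and their part in its VIM level was not tested.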

How the results depend on the processing

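Over 455 alternative values of single genes, 436 kept their direction and their side of the threshold, 18 turned direction and 1, AQP4 in Si-NEC against Co-NEC, passed the threshold. The count of the 7 genes past the threshold in Si-NEC against Co-NEC was 1 in place of 0 with array weights and 1 with an unadjusted limma p under 0.05, the gene being AQP4 in both. With each pig left out in turn, AQP4 in that comparison ran from −0.62 to −0.39. GFAP in Si-NEC against No NEC was −0.00879 with array weights and −0.0438 without pigs 223-15 and 230-15 together. Against Co-NEC it was −0.0043 and −0.0337, and GJA1 was −0.0719 and −0.0714. Leaving out 1 pig gave −0.0501 to 0.17 for GFAP in Si-NEC against No NEC, −0.0337 to 0.19 for GFAP and −0.0714 to 0.17 for GJA1 against Co-NEC (each turned without 223-15). It gave −0.0397 to 0.0625 for SLC1A3 in Si-NEC against No NEC (turned without 540-14, 547-14 or 246-15), −0.0515 to 0.0472 for GFAP (231-15 or 228-15) and −0.15 to 0.20 for SLC14A1 (545-14, 552-14, 540-14 or 228-15) where Co-NEC was compared with No NEC. The number of correlated pairs past the threshold ran from 0 to 2, with 0 without 223-15 or 224-15 and 2 without 540-14, 547-14 or 539-14. The cause was not tested. No paired analysis was possible because the labels give no replicate numbers shared between groups. Depth is unknown, so no counting error can be given.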

Other observations

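Set against GFAP in the same pig, AQP4 was lowest in Si-NEC pigs. The ratio of AQP4 to GFAP FPKM ran from 0.177 over a median of 0.214 to 0.278 in Si-NEC, from 0.238 over 0.257 to 0.326 in No NEC and from 0.244 over 0.347 to 0.381 in Co-NEC pigs. In 5 of the 6 Si-NEC pigs it was below every pig of the other groups, the exception being 226-15. Other ratios set Si-NEC less apart. That of AQP4 to VIM was below every pig of the other groups in 2 of the 6 Si-NEC pigs. That of VIM to GFAP was above every pig of the other groups in 2 of the 6. The ratio of AQP4 to GFAP was picked after the values were seen, so it was not tested.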
